A study of Caenorhabditis elegans with 7 samples.

Results

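Cuticle collagens are the structural proteins of the nematode skin. The set described here holds the genes of the Affymetrix C. elegans GeneChip that carry a collagen name of this kind, that is every col gene, every sqt, rol and bli gene, and dpy-2, dpy-3, dpy-4, dpy-5, dpy-7, dpy-8, dpy-9, dpy-13 and dpy-17. These were 149 of the 17118 genes with a probe set of their own, and each gene was read from 1 probe set, the array's unit of oligonucleotides for 1 transcript. By family there were 128 col, 9 dpy, 5 bli, 4 rol and 3 sqt genes. The name is not always right: bli-3 is a dual oxidase, bli-4 a proprotein convertase, bli-5 a protease inhibitor and rol-3 a receptor tyrosine kinase, all of which act in the cuticle or epidermis but are not collagens, and col-99 is a membrane-spanning collagen.

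Cuticle collagens are short proteins with Gly-X-Y repeats that the epidermis (the hypodermis of the worm) secretes at the end of embryogenesis and again before each molt. Chains are hydroxylated and folded into trimers in the endoplasmic reticulum, cleaved by a convertase and by astacin proteases, and crosslinked outside the cell. Mutations in single collagen genes change the shape of the animal, and these phenotypes (dumpy, squat, roller, blister) gave the genes their names.

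To find which transcripts mark a single neuron class, RNA was compared between embryonic A-class motor neurons, the cholinergic neurons of the ventral cord that drive backward movement, and the embryonic reference. The 3 A-class arrays came from cells of an unc-4::GFP strain, dissociated from chitinase-treated embryos, kept in culture for 24 hours and sorted for GFP to about 90% purity, and the 4 reference arrays came from all living cells of wild-type (N2) embryos taken through the same dissociation and culture. The groups therefore differed in strain and in the GFP gate, and the reference kept all cell types of the culture, epidermal cells and neurons included. Each array was hybridized with cRNA made from 100 ng of total RNA in 2 rounds of amplification. The labels call the arrays biological replicates.

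Coefficients of determination between arrays ran from 0.938 to 0.969 within the reference, from 0.893 to 0.947 within A-class and from 0.772 to 0.876 between the groups. unc-4, the homeobox gene whose reporter defined the gate, had intensities of 1155 to 1386 on the A-class arrays and 90.1 to 111 on the reference arrays (log2 fold change 3.72 ± 0.13 SE, limma adjusted p = 2.13e-05). Of the 14 neuron markers 5 were called higher in A-class (against 2.20% of all genes) and none lower. The unc-31 call was lost on leaving out any 1 array, and that of ric-4 without reference replicate 2 or A-class replicate 1 or 3. Of the 14 hypodermis markers 4 were called lower (noah-2, dlg-1, lon-1 and mup-4, against 3.30% of all genes) and none higher. mup-4 lost its call without reference replicate 2, 3 or 4 or A-class replicate 3, and lon-1 without reference replicate 3 or any A-class array. With the fluidics module of each hybridization as a block, mup-4, lon-1, unc-31 and ric-4 lost their calls (limma adjusted p = 0.0204, 0.0273, 0.0417 and 0.0205). In A-class 10 hypodermis markers lay below every reference array (against 13.6% of all genes). The summed intensity of the hypodermis markers was 2165 to 2417 on the A-class arrays and 3295 to 4511 on the reference arrays. Without detection calls such a sum does not show whether these transcripts were present in A-class. The part of residual epidermal cells in the A-class values below was not tested. In bulk RNA of this kind, fewer cells of a type and less RNA per cell cannot be told apart. Chip lot and hybridization day each separated the groups completely, and their effect and that of the cell type cannot be told apart.

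Most cuticle collagens differed little in intensity between A-class neurons and the reference, and a few differed strongly, in either direction. A gene was called at a limma adjusted p under 0.01 (Benjamini-Hochberg over all probe sets) and at least a 1.7-fold difference. By this rule 4 of 149 members were lower in A-class (2.68%, against 3.30% of all genes) and 2 were higher (1.34%, against 2.20% of all genes), so neither share stood above the background. The median log2 fold change of the members was 0.02, against 0.05 over all genes, and 120 of 149 members lay within 0.5 of 0, as did 12830 of the 17118 genes. Of the 77 members above the array median on at least 1 array 49 lay within 0.5 of 0, and of the 72 dimmer members 71 did. The range was wide all the same, from a fall by 2.87 on the log2 scale for dpy-17 to a rise of 3.40 for sqt-1.

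**Figure D1:**
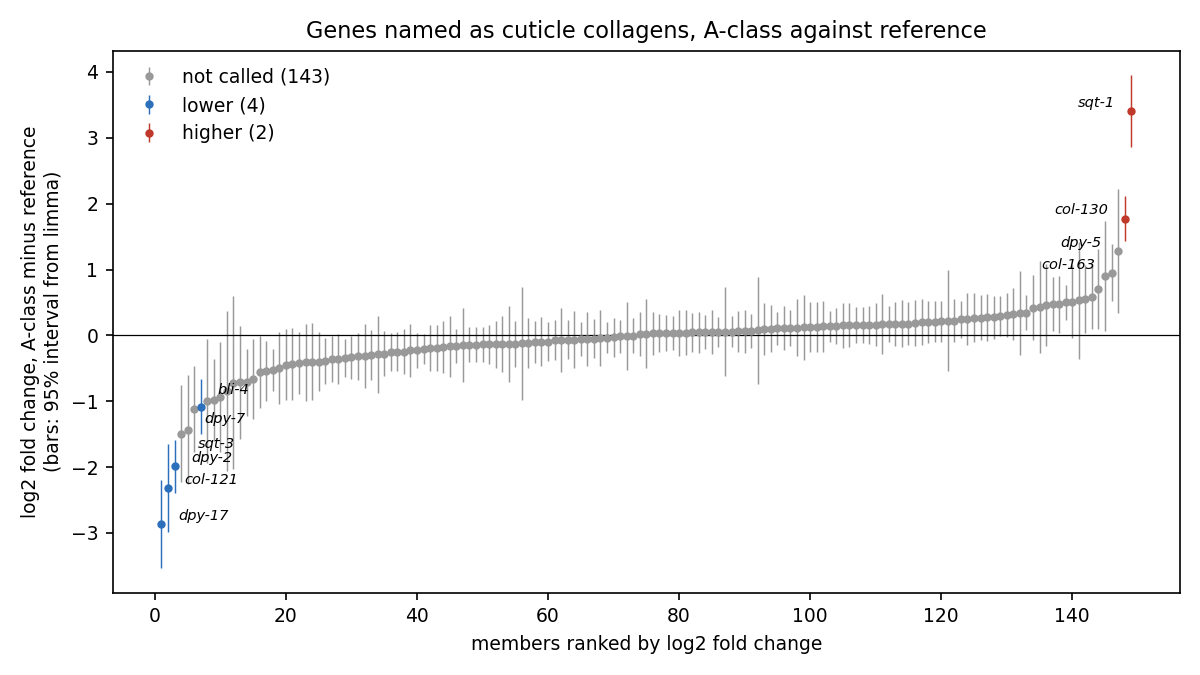
Log2 fold change (A-class minus reference, vertical axis) of the 149 members in rank order (horizontal axis), with 95% intervals from limma; blue members were called lower, red higher, and grey members were not called. Most members lie close to 0, with dpy-17, col-121 and dpy-2 at the low end and sqt-1 and col-130 at the high end.

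The largest fall was in dpy-17, a collagen needed for normal body length that acts together with SQT-3. Its intensity was 2551, 1225, 2435 and 1358 on reference arrays 1 to 4 and 205, 239 and 303 on A-class arrays 1 to 3. Every A-class array lay far below every reference array. The fall was 7.31-fold (log2 fold change -2.87 ± 0.29 SE, limma adjusted p = 0.00097), the 9th largest of the 17118 genes.

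The partner gene, sqt-3, encodes an abundant collagen whose C-terminal propeptide is cleaved by the astacin protease DPY-31. It gave 4806, 3039, 3212 and 2308 on the reference arrays and 954, 1879 and 838 on the A-class arrays. The groups did not overlap, but A-class replicate 2 lay close to the lowest reference array and about a factor of 2 above the other two A-class arrays. The log2 fold change of -1.49 ± 0.32 SE did not pass the threshold (limma adjusted p = 0.0171). It passed without A-class replicate 2 (log2 fold change -1.85, adjusted p = 0.00764), and so did the gene's other probe set on all 7 arrays (log2 fold change -1.65, adjusted p = 0.00929), a probe set whose suffix marks possible cross-hybridization.

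Among the collagens of the furrows, the circumferential grooves of the cuticle, dpy-2 was lower. It gave 244, 160, 210 and 169 on the reference arrays and 42.9, 55.4 and 48.3 on the A-class arrays. The A-class values were close to each other, and the groups were separated by more than the spread of either (log2 fold change -1.99 ± 0.18 SE, limma adjusted p = 0.000583, and -1.30 with 50 added to the intensities). Its second probe set was also called lower (-1.53).

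The other furrow collagens were not called and did not move as a block. dpy-7, a further furrow component, gave 363, 151, 302 and 137 on the reference arrays and 65.5, 106 and 76.7 on the A-class arrays. Its groups did not overlap, but the reference arrays fell into a high pair (replicates 1 and 3) and a low pair (replicates 2 and 4), and the log2 fold change of -1.43 ± 0.36 SE had an adjusted p of 0.0301. For dpy-3 the log2 difference was -0.66 (limma adjusted p = 0.121), with A-class replicate 2, at 119, inside the reference range of 92.9 to 147. dpy-8 (0.42) and dpy-9 (0.04) were not lower at all, and dpy-9 stayed between 38.3 and 47.5 on all arrays, under the array medians of 66.9 to 70.1. Of the 5 furrow collagens, then, 1 was called lower (against 3.30% of all genes), none was called higher, and the median log2 fold change was -0.66.

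Of the numbered col genes, col-121 was the only one called lower. Its intensity was 292, 170, 294 and 179 on the reference arrays and 34.7, 67.8 and 39.7 on the A-class arrays. All A-class arrays were under the lowest reference array, and replicate 2 was again the highest of the A-class arrays. The log2 fold change was -2.32 ± 0.29 SE (limma adjusted p = 0.00215), or -1.53 with 50 added, and both of its probe sets were called lower. Both end in _s_at, a suffix that marks oligonucleotides that can match more than 1 transcript. The call was lost without A-class replicate 1 (adjusted p = 0.0107) or replicate 3 (adjusted p = 0.0125).

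The fourth member called lower is not a collagen. bli-4 encodes a proprotein convertase that trims the N-terminal end of procollagens. It measured 178, 167, 152 and 152 in the reference and 81.8, 95.6 and 56.5 in A-class, without overlap (log2 fold change -1.09 ± 0.18 SE, limma adjusted p = 0.00643). Of its 9 probe sets 5 were called lower and none higher, with log2 fold changes from -1.58 to 0.18, while the call of the probe set used here was lost on leaving out any array other than A-class replicate 2 (adjusted p up to 0.0262). This call was also lost with a further quantile normalization (log2 fold change -0.99, limma adjusted p = 0.0119) and with 50 added (-0.74, short of the fold limit).

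The largest rise was in sqt-1, a collagen whose mutants are squat or rolling. It gave 24.7, 22.8, 27.6 and 27.4 on the reference arrays, well under the median intensity of those arrays, and 265, 185 and 402 on the A-class arrays. All A-class arrays lay far above all reference arrays, though they also differed among themselves. The log2 fold change was 3.40 ± 0.24 SE (limma adjusted p = 0.000341), and 2.09 with 50 added to every intensity, a setting that damps differences of dim values. No detection call shows whether the reference values were above background, so the size of the rise is not settled. Only 1 probe set names sqt-1, and its suffix (_s_at) marks oligonucleotides that can match more than 1 transcript.

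The other member called higher was col-130, a numbered cuticle collagen. Its reference intensities were 33.2, 25.1, 32.9 and 24.8, also under the array median, and its A-class intensities were 93.9, 98.5 and 102. The A-class arrays were nearly equal and all lay well above the reference arrays (log2 fold change 1.77 ± 0.15 SE, limma adjusted p = 0.00049). With 50 added the log2 fold change was 0.91 (adjusted p = 0.00134), since here too the reference values were dim. This probe set too ends in _s_at, so that with probe sets ending in _at alone no member was called higher by limma, with 7 at an unadjusted p under 0.05.

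These 4 members, sqt-1, col-130, dpy-17 and dpy-2, kept their calls when any 1 array was left out. With the fluidics module of each hybridization as a block they also kept them (log2 fold changes of 3.44, 1.84, -2.72 and -1.95, limma adjusted p = 0.00632, 0.00629, 0.00793 and 0.00746), while col-121 (adjusted p = 0.0139) and bli-4 (adjusted p = 0.0373) did not. The 2 modules that held both groups gave like differences for sqt-1 (3.39 and 3.54), col-130 (1.81 and 1.90), dpy-17 (-2.79 and -2.58), dpy-2 (-1.97 and -1.90), col-121 (-2.14 and -2.29) and bli-4 (-1.16 and -1.02). The first value is from module 1, with 2 arrays a group, and the second from module 2, with only 1 array a group. A difference between single arrays has no measure of spread.

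**Figure D2:**
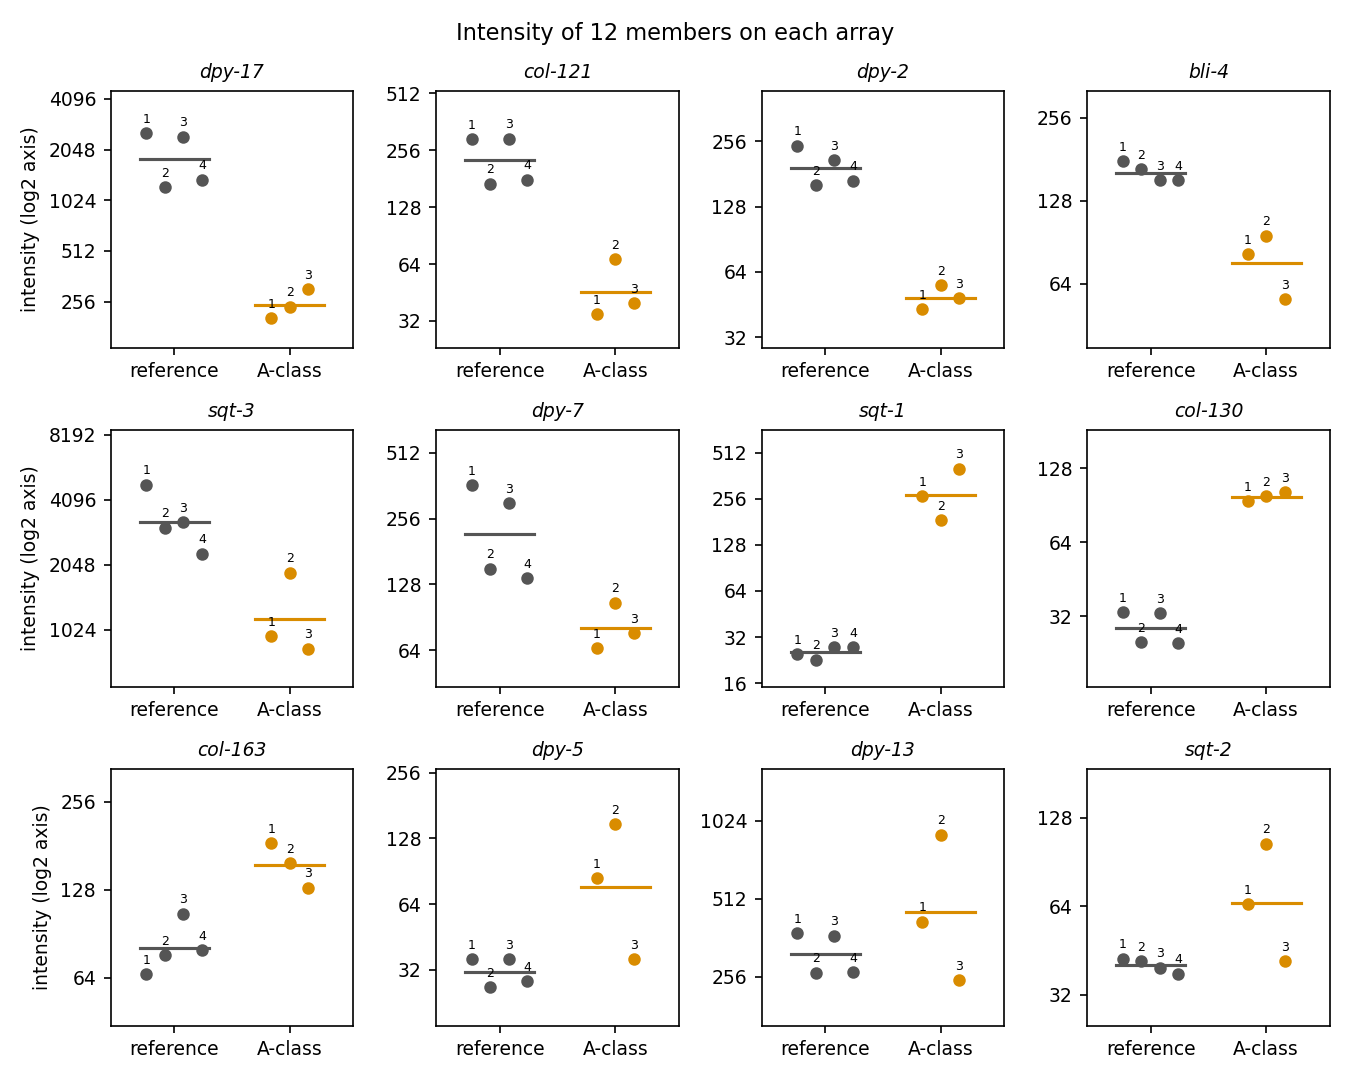
Intensity (vertical log2 axis, a separate range for each gene) of 12 members on the 4 reference and 3 A-class arrays; each point is 1 array with its replicate number, and lines are geometric means. dpy-17, col-121, dpy-2, bli-4, sqt-3 and dpy-7 lie lower in A-class and sqt-1, col-130 and col-163 higher, while in dpy-5, dpy-13 and sqt-2 A-class replicate 2 is the highest array.

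Several members came near the threshold, and those named in this paragraph were picked after their values were seen. col-163 had 184, 158 and 130 in A-class against 65.8, 76.5, 106 and 79.6 in the reference, with no overlap (log2 fold change 0.95 ± 0.19 SE, limma adjusted p = 0.0127), and was called without reference replicate 3 (adjusted p = 0.00963). col-75 was also separated, but by less (log2 fold change 0.50, adjusted p = 0.0225). On the other side, col-53 (-1.12, adjusted p = 0.03) and col-43 (-0.98, adjusted p = 0.0422) were below every reference array in A-class. At an adjusted p under 0.05 and the same fold limit 8 members were lower (5.37%, against 6.54% of all genes) and 3 were higher (2.01%, against 4.00%).

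The annulus collagens dpy-4, dpy-5 and dpy-13, found in the ridges between the furrows, were not called, and in each of them A-class replicate 2 was the highest array. dpy-13 gave 377, 266, 369 and 266 on the reference arrays and 418, 904 and 249 on the A-class arrays. A-class replicate 2 was by far the highest array, replicate 1 was just above the reference and replicate 3 was below it, and the log2 fold change of 0.53 was well within the spread (limma adjusted p = 0.359). dpy-5 gave 35.8, 26.6, 35.8 and 28.4 in the reference and 83.8, 148 and 35.8 in A-class. A-class replicates 1 and 2 stood clear of the reference and replicate 3 lay level with its highest arrays (log2 fold change 1.28 ± 0.41 SE, adjusted p = 0.0661), and without replicate 3 the gene was called higher (log2 fold change 1.83, adjusted p = 0.00884). dpy-4 gave 242, 540 and 173 in A-class against 221 to 271 in the reference, so that only replicate 2 was outside the reference range on the high side (log2 fold change 0.22, adjusted p = 0.666).

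Of the body shape collagens not yet named, rol-6 and rol-8 also had A-class replicate 2 apart. rol-6, a roller gene related to sqt-1, read 71.8, 156 and 71.8 in A-class and 55.8 to 72.7 in the reference (log2 fold change 0.46, limma adjusted p = 0.267). sqt-2 read 65.1, 104.3 and 41.7 against 37.7 to 42.5 (0.70, adjusted p = 0.104). rol-8 read 20.97, 46.5 and 19.6 against 20.2 to 22.9 (0.33, adjusted p = 0.422), and its second probe set reached 579 on A-class replicate 2 with 42.3 to 77.6 on all other arrays. In rol-6 and rol-8 A-class replicate 2 alone lay above its group, whereas in sqt-2 replicate 1 was above the reference range too. rol-1 (-0.03) was flat, between 40.5 and 44.1 on all arrays.

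A-class replicate 2 was the highest of the 7 arrays for 49 members (32.9%, against 26.3% of all genes). Among the 77 members above the array median on at least 1 array, it was the highest for 17 (22.1%, against 20.1% of such genes). A-class replicate 2 lay at least 1.7-fold above both other A-class arrays for 12 members (8.05%, against 2.25% of all genes): col-121, sqt-3, dpy-3, col-132, dpy-4, rol-8, col-129, rol-6, dpy-13, col-41, col-90 and dpy-5. Of these, 11 were among the 77 brighter members (14.3%, against 2.74% of such genes). col-90, picked as an example after its values were seen, gave 63.6, 120 and 33.1 in A-class and 32.4 to 35.8 in the reference. This array also had the lowest sum of neuron markers of the 3, 11642 against 13205 and 14147, and the lowest sum of A-class markers, 2757 against 3324 and 3939. Its hypodermis marker sum of 2165 was the lowest of the 3 as well, whereas its intestine marker sum was the highest, 1105 against 709 and 865. Their part in the collagen values was not tested.

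The reference arrays were not uniform for collagens either. Replicates 1 and 3 both lay above replicates 2 and 4 for 85 members (57.0%, against 20.7% of all genes), dpy-17, dpy-7, dpy-13, col-121 and col-130 among them. Reference replicate 1 was the highest array for 40 members (26.8%, against 9.91% of all genes) and lay at least 1.7-fold above the other reference arrays for 6 (4.03%, against 0.806%), namely col-109, col-74, col-165, col-34, col-89 and col-48. col-74, also picked after seeing its values, read 264 there and 54.8 to 62.8 on the other reference arrays. Of the reference arrays, replicates 1 and 4 shared a fluidics module. Replicates 1 and 3 lay above 2 and 4 for 2 of the 14 hypodermis markers and for 7 of 18 non-collagen cuticle proteins (against 20.7% of all genes). The arrays were not regrouped on this order, and its source was not tested.

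**Figure D3:**
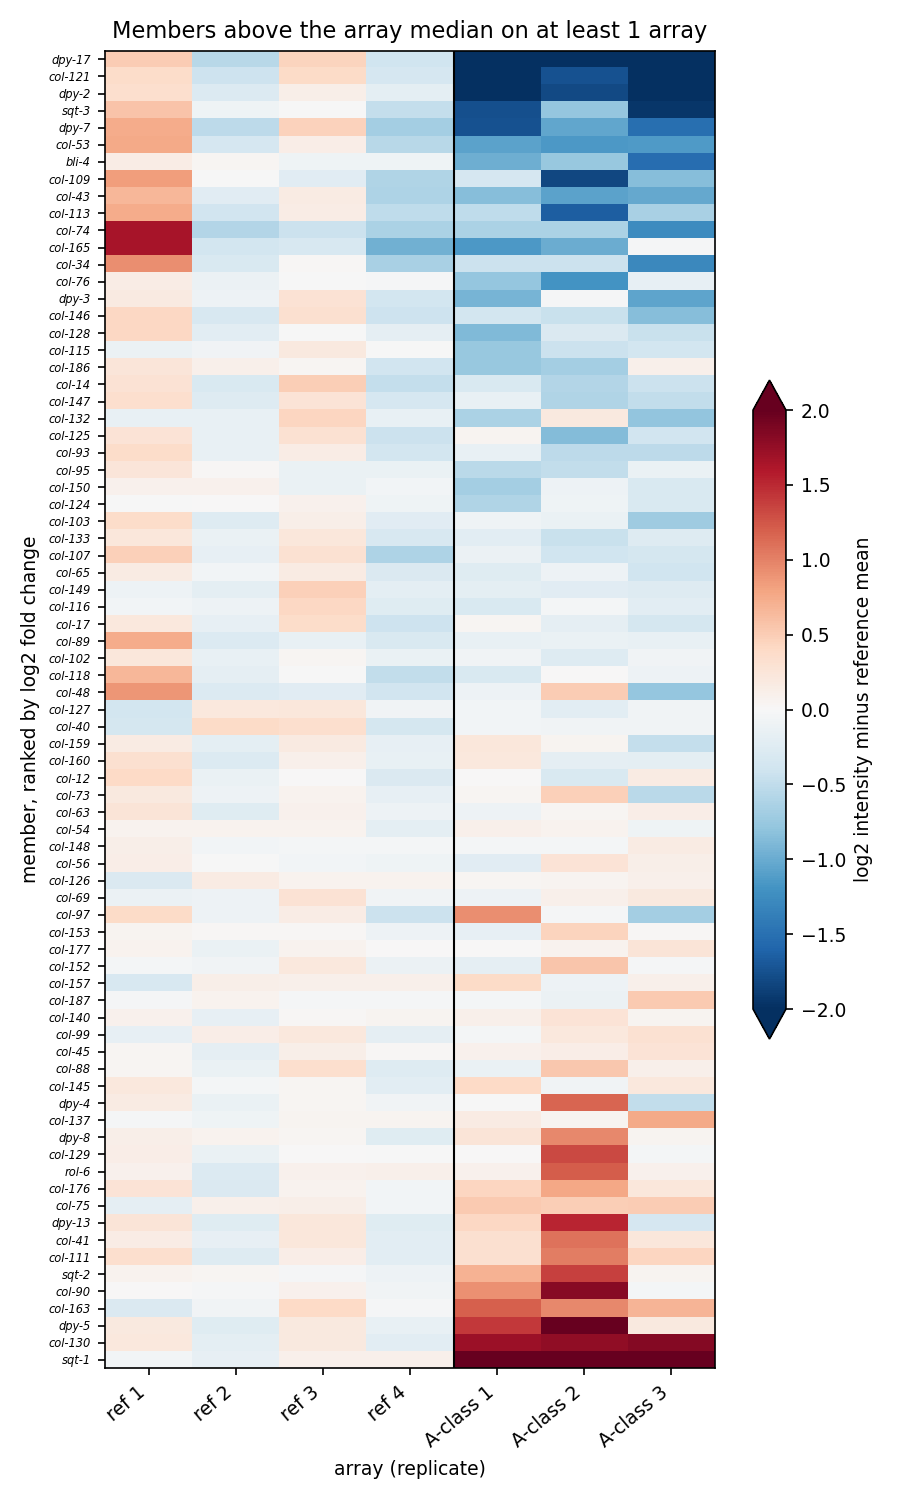
Log2 intensity minus the mean of the reference arrays (colour, cut at 2 either way) of the 77 members that exceeded the array median on at least 1 array, by array (columns) and in order of log2 fold change (rows). Reference replicates 1 and 3 are redder than 2 and 4 in most rows, and A-class replicate 2 is the reddest array in many rows near the bottom.

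The groups were also compared without a test, by whether their ranges overlapped. All A-class arrays lay below every reference array for 16 members (10.7%, against 13.6% of all genes) and above every reference array for 11 (7.38%, against 17.1%). Both shares were under the background.

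Many members were near the low end of the array. 72 of 149 lay under the array median on all 7 arrays (48.3%, against 37.6% of all genes), and none of these was called by limma, with log2 fold changes from -0.49 to 0.51 (1 lower and 2 higher at an unadjusted p under 0.05). The 6 calls all fell among the other 77 members, whose median log2 fold change was -0.11, against 0.02 for the whole set. For the dim genes a low intensity is not a measure of absence, since the files used here hold no detection calls.

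Collagens known from later stages were among the flat genes. The strut collagens bli-1 (-0.14) and bli-2 (-0.01), which hold the layers of the adult cuticle apart, did not exceed 64.1 on any array. col-19, an adult collagen, read 19.2 to 28.1 (log2 fold change 0.16), and col-2, a dauer collagen, 31.96 to 37.3 (-0.02). None of these was called. col-12 (-0.04) and col-40 (-0.07) read 93.9 to 153 and 51.7 to 86.5 over all arrays, and their groups overlapped. The membrane collagen col-99, 98.4 to 137 on all arrays, was not called either (0.16, limma adjusted p = 0.469).

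The 126 col genes that were not called spanned log2 fold changes from -1.12 to 0.95, and 109 of them were within 0.5 of 0. Among 14 pairs of members next to each other in the RefSeq gene order (assembly WBcel235), none held a called gene. With only 6 of 149 members called, so few pairs cannot show whether neighbours differ from other members.

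Collagens are a large family with near-identical copies, and the array does not resolve all of them. RefSeq held 181 gene names that match the rule. Of these, 149 had a probe set of their own, 20 were represented only by probe sets that name several genes, and 12 were not analysed here. The 17 probe sets that name several collagens had log2 fold changes from -0.56 to 0.21 and none was called (1 at an unadjusted p under 0.05, smallest limma adjusted p = 0.0661, for the pair col-154 and col-155). Members were read from probe sets ending in _at in 93 cases, in _s_at in 34 and in other suffixes in 22, and the last 2 kinds can hybridize with related transcripts.

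The genes that fold procollagen were partly lower in A-class. Of 13 measured folding genes 3 were called lower (against 3.30% of all genes) and none higher, with a median log2 fold change of -0.28. These were the protein disulfide isomerase gene pdi-3, at 608, 548 and 367 in A-class against 1399 to 1668 in the reference (log2 fold change -1.60, limma adjusted p = 0.00159), and the endoplasmic reticulum chaperone genes hsp-3 (-1.37, adjusted p = 0.000781) and hsp-4 (-1.19, adjusted p = 0.00283), the last of which lost its call without reference replicate 2 or A-class replicate 3 (adjusted p up to 0.0118). With the fluidics module as a block none of these 3 genes kept its call (pdi-3, hsp-3 and hsp-4 at limma adjusted p = 0.0159, 0.0107 and 0.0193). All 3 serve secreted proteins in general, not collagens alone. None of the prolyl 4-hydroxylase subunits, which modify the repeats, was called on the probe set used: dpy-18 differed by 0.54 on the log2 scale (adjusted p = 0.0501), phy-2 by -0.28 and pdi-2 by 0.07. pdi-2 reversed on another of its probe sets, which was called lower (-1.55, adjusted p = 0.00211).

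Of 15 measured processing and crosslinking genes 3 were called lower (against 3.30% of all genes) and none higher, with a median of -0.46. These were dpy-31, nas-7 and bli-4, the last of which is already counted among the members called lower. dpy-31, whose product cleaves SQT-3, gave 202, 393, 203 and 271 in the reference and 63.1, 55.3 and 86.2 in A-class. All A-class arrays lay under the lowest reference array (log2 fold change -1.94 ± 0.26 SE, limma adjusted p = 0.00268). nas-7, another astacin protease gene, fell as far (log2 fold change -1.94, adjusted p = 0.00408). Leaving out single arrays ended the call of dpy-31 without A-class replicate 1 or 2 (adjusted p up to 0.0136) and that of nas-7 without reference replicate 2 or 4 or A-class replicate 1 or 3 (adjusted p up to 0.0208). Neither dpy-31 nor nas-7 kept its call with the fluidics module as a block (limma adjusted p = 0.0159 and 0.0225) or with 50 added (limma adjusted p = 0.0103 and 0.0111). tsp-15, a tetraspanin that works with the dual oxidase BLI-3, had a small but even difference that missed the fold limit (-0.64, adjusted p = 0.00664), and bli-3 itself was flat at 29.7 to 38.8 (-0.14). bli-5 (0.47) and rol-3 (0.05) were not called.

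No gene of the procollagen secretion list, 8 in all, was called by limma (median -0.06, 1 at an unadjusted p under 0.05), and TMEM-131, which recruits collagens for export, gave a log2 difference of -0.85 (tmem-131, limma adjusted p = 0.0141). Of 18 other cuticle proteins 2 were lower, against 3.30% of all genes. These were noah-2 (-2.38, adjusted p = 0.000375), a zona pellucida domain protein of the embryonic apical matrix, and mlt-9 (-1.32, adjusted p = 0.00905), a molting gene. The noah-2 call is the same as that counted above among the hypodermis markers. noah-2 kept its call on leaving out any array, and mlt-9 lost it on leaving out each of the 7 (adjusted p up to 0.0308) and with median centering (adjusted p = 0.0103).

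Among 13 epidermal transcription factors 1 was called lower (against 3.30% of all genes), the zinc finger gene blmp-1 (-1.59, limma adjusted p = 0.00872). This call was lost in all leave-one-out fits other than that without reference replicate 3 (adjusted p up to 0.0355), and with median centering (adjusted p = 0.0107). The nuclear receptor gene nhr-25 (-1.19, adjusted p = 0.0148), the epidermal fate gene lin-26 (-0.97, adjusted p = 0.055) and the GATA factor gene elt-3 (-0.73, adjusted p = 0.045) were not called, and nhr-23, a molting regulator, missed only the fold limit (-0.69, adjusted p = 0.00877). elt-1, the GATA factor that specifies epidermis, was on the other side, at 375, 209 and 381 in A-class and 139 to 167 in the reference. The groups did not overlap, but replicate 2 was low among the A-class arrays and the rise was not called (1.05 ± 0.22 SE, adjusted p = 0.0143), but it was without that array (1.33, adjusted p = 0.00201).

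In the DBL-1 pathway, the BMP-like signal that sets body size and acts on cuticle collagens, 2 of 11 measured genes were lower and 1 was higher. Over all genes 3.30% were lower and 2.20% higher. sma-3, a Smad, fell by 1.60 on the log2 scale (limma adjusted p = 0.00225) and lon-1, a secreted protein made in the epidermis, by 1.69 (adjusted p = 0.00385). The lon-1 call is also counted above among the hypodermis markers. lon-2, a glypican that restrains the pathway, was higher, with 1179, 1214 and 1265 in A-class against 275 to 588 in the reference (1.52 ± 0.23 SE, adjusted p = 0.00426). Leaving out single arrays ended these calls for sma-3 without A-class replicate 3, for lon-1 without reference replicate 3 or any A-class array, and for lon-2 without reference replicate 4 or any A-class array (adjusted p up to 0.0122, 0.0193 and 0.0206). The ligand gene dbl-1 itself was not called (0.21). lon-3, a cuticle collagen outside the name rule, followed the array pattern seen above, with 29.7, 75.6 and 35.5 in A-class and 31.1 to 39.05 in the reference (0.27, adjusted p = 0.544).

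**Figure D4:**
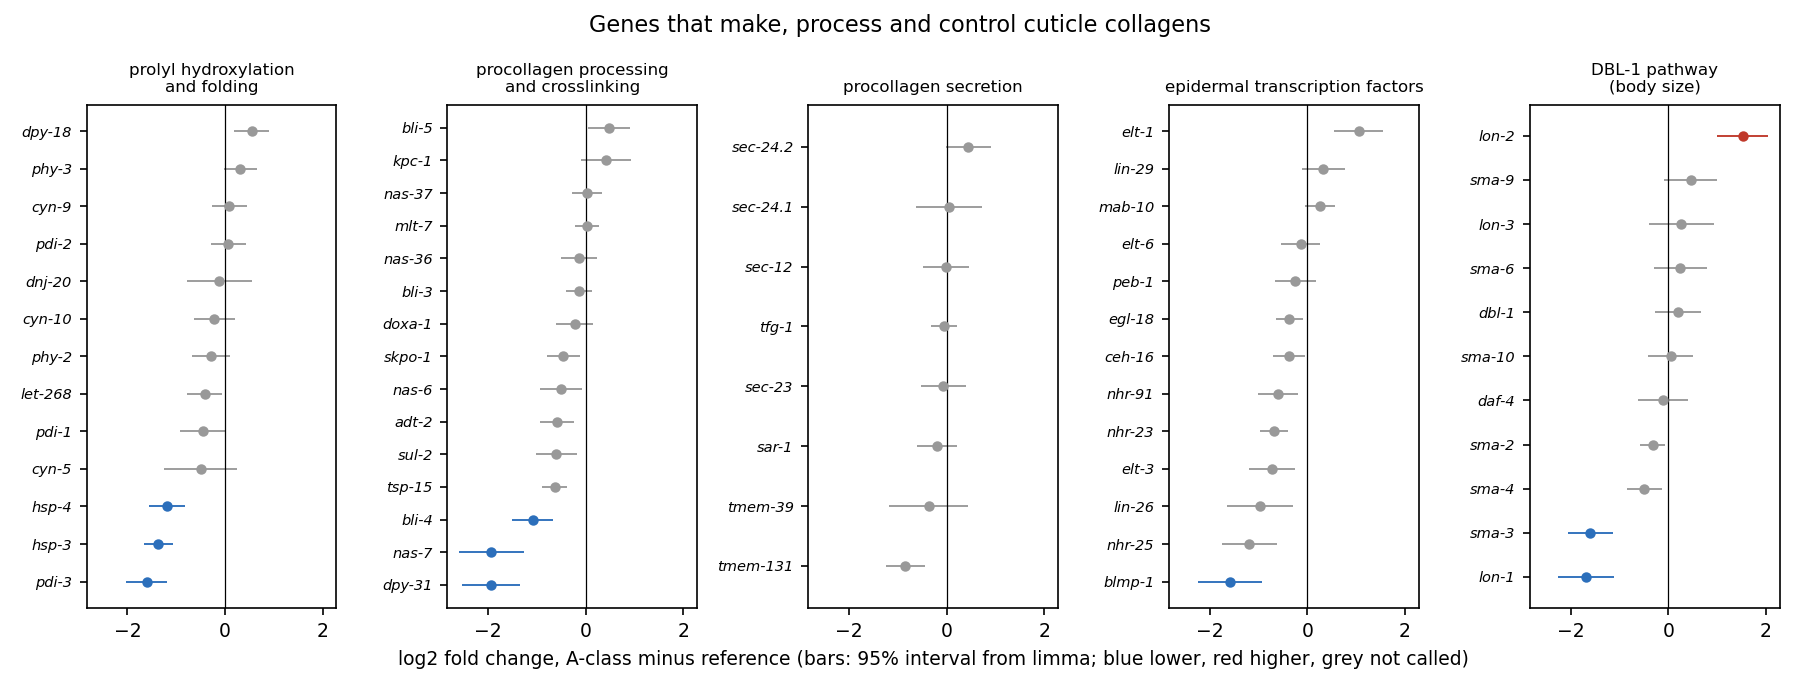
Log2 fold change (A-class minus reference, horizontal axis) with 95% intervals from limma for the genes that fold, process, export and control cuticle collagens, by list; blue genes were called lower, red higher, and grey were not called. pdi-3, hsp-3, hsp-4, dpy-31, nas-7, bli-4, blmp-1, sma-3 and lon-1 are lower and lon-2 is higher.

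Collagens of other matrices gave a further comparison. let-2, the alpha2 chain of the basement membrane type IV collagen made largely by muscle, read 80.8, 117 and 95.3 in A-class and 313 to 493 in the reference (log2 fold change -1.95 ± 0.19 SE, limma adjusted p = 0.000874). Its alpha1 partner emb-9 overlapped between the groups (-0.67, adjusted p = 0.11), as did the genes of the type XVIII collagen cle-1 (0.49) and the touch neuron matrix collagen mec-5 (0.06).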

How the data were processed

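For each array, the authors deposited an intensity of every probe set, on a linear scale after RMA, which the submitters' processing notes name. The RMA version was not given in the sources used here, and likewise the arrays normalized together and the genome build. The hybridization records deposited with the arrays (unit: other) gave only chip lot, fluidics module and day. The value table had 0 columns without a sample. Precision is limited by the 7 arrays.

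Log2 intensity without pseudocount or filter was fitted with limma 3.58.1 in R 4.3.3 (lmFit, eBayes; 3 A-class against 4 reference arrays, no covariates, 5 residual degrees of freedom), adjusted by Benjamini-Hochberg over 22548 probe sets. The study's methods name SAM, which resamples arrays, for its other datasets and state no test for embryonic A-class. The fit was tested on simulated data. Gene names came from the platform annotation. 20766 probe sets had 1 symbol, 887 several and 895 none. All 149 members matched RefSeq (WBcel235). A gene used its _at probe set, then _s_at, then others, and the brightest among equals. Levels are not compared between probe sets, except as summed marker lists.

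Members, the 22 gene lists and tests were chosen with earlier results of these data known. Named genes were every sqt, rol, bli and dpy member, stage-marked col genes, up to 12 called members each way, called list genes and list genes whose role is described. Others are stated as picked after seeing values.

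Alternatives covered the variance model, limits, dim probe sets, normalization, an added 50, probe set choice, blocks, module 1 alone, single arrays left out and, added after seeing the data, leaving out bli-3, bli-4, bli-5, rol-3 and col-99. Figures used Python 3 and matplotlib.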

Additional observations from a re-analysis of the deposited data

Results flagged for a closer look

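In 10 of the 96 named genes looked at, 1 reference array stood apart from the other 3 by Dixon's criterion, which normally distributed values meet in about 1 group in 20. Equal values on several reference arrays, as in bli-3, rol-6 and col-2, make the criterion easier to meet, so the 10 cannot be set against that rate. Among the genes of the collagen set those with 1 array apart were bli-3 (38.8 on reference replicate 1), col-74 (264 on replicate 1), rol-6 (55.8 on replicate 2, the low side), and rol-1 (44.1), dpy-9 (46.4) and col-2 (36.2), all on replicate 3. In the other lists they were noah-2 (656 on replicate 4), the germline helicase gene glh-4 (342 on replicate 4), and cyn-9 (44.9) and mab-10 (42.6) on replicate 2.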

How the results depend on the processing

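The 4 lower and 2 higher collagen genes became 8 lower at an adjusted p under 0.05, 0 higher with _at probe sets alone, 2 lower with the fluidics module as a block (3 residual degrees of freedom), and 0 lower and 0 higher with module 1 alone, which has 2 arrays a group (5 and 5 at an unadjusted p under 0.05, and 1842 and 1849 of all genes). Leaving out single arrays gave 2 to 5 lower (2 without A-class replicate 1 or 3, 5 without A-class replicate 2) and 2 to 3 higher (3 without reference replicate 3 or A-class replicate 3), and without the 4 non-collagens and col-99 there were 3 and 2. The median log2 fold change was -0.0579 without the dimmest 30% of probe sets and -0.0493 to 0.0287 with single arrays left out. The count below every reference array was 8 with _at probe sets alone, 28 in module 1 alone and 16 to 27 with single arrays left out, where fewer arrays make separation easier. Over all genes, 565 lower and 377 higher became 1120 and 684 at an adjusted p under 0.05, 251 and 187 with 50 added, 80 and 73 with the module block, 0 and 0 in module 1 alone, and 172 to 542 and 135 to 355 with single arrays left out. _at probe sets alone gave 357 lower. pdi-2 reversed, from 0.07 to -1.55 (limma adjusted p = 0.00211), where any probe set could stand for a gene. The cause was not tested. Over 96 named genes and 1778 alternative values, 1611 kept their call, 149 lost it, 17 gained it and 1 reversed. Only 32 of the 96 were called in the main fit, and only these could lose a call, so the kept values include many genes that stayed uncalled. The alternative without proteins lacking Gly-X-Y repeats was not run as planned, and named genes stood in for it.

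Replicate numbers do not pair the arrays: deviations of same-numbered arrays correlated at 0.03, -0.12 and -0.05. With the replicate block (2 residual degrees of freedom) 1 collagen gene was lower, dpy-17, and 2 were higher, with 78 lower and 69 higher genes in all.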
